A study of Homo sapiens with 2 samples.

Results

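Fibroblast growth factor (FGF) receptors, FGF ligands and the docking protein FRS2 were followed in 2 RNA-seq libraries of C4-2B, a castration-resistant subline of the human prostate cancer line LNCaP, obtained through C4-2. The 10 genes were chosen by symbol (FGFR1, FGFR2, FGFR3, FGFR4, FGFRL1, FGF2, FGF7, FGF8, FGF13 and FRS2), and all 10 had a row among the 25343 rows of the deposited table. The first library came from C4-2B ENZR, a line resistant to the antiandrogen enzalutamide and kept in 20 µM of the drug, and the second from C4-2B Con, its drug-sensitive counterpart, grown in parallel with DMSO. Both were grown with 10% FBS (fetal bovine serum). The ending shC of both titles is not explained in the labels, which also do not say whether ENZR is a single clone or a pool. Each group had 1 library, with 23479051 reads in genes for ENZR and 21024484 for Con, so no p-value could be given and the spread between cultures is unknown.

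FGF receptors are cell-surface tyrosine kinases that pair up when an FGF binds together with heparan sulfate or, for hormone-like FGFs, a klotho protein. The activated receptor phosphorylates FRS2, which recruits GRB2, SOS, GAB1 and the phosphatase SHP2 and thereby switches on the RAS-ERK pathway, and Sprouty proteins and dual-specificity phosphatases dampen it again. In the prostate, FGF7 and FGF10 are classical ligands made by the stroma that act on FGFR2 of the epithelium, whereas FGF2 and FGF8 have been studied as growth factors of prostate cancer cells.

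Of the 10 genes, 7 had a mean of 1 CPM or more over both libraries (CPM, a gene's reads per 1000000 reads in all genes, scaled with TMM by the authors), and FGF2, FGF7 and FGF8 did not. FGFR3 was 8.33-fold lower in ENZR and was the 1 gene of the 7 past 2-fold, where past 2-fold means a log2 ratio of at least 1 or at most -1 after adding 1 CPM to both values. No member was at least 2-fold higher. Over the 13803 genes at or above this mean, 6.69% were higher and 4.64% lower by 2-fold or more. Per transcript length, FGFR4 and FGFR1 were the leading signalling receptors in both libraries, and FGFR3 was the lowest in ENZR but not in Con. In bulk RNA, fewer cells with a transcript and less of it per cell cannot be told apart.

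FGFR3 and FGFR4 were the receptors with the largest ratios in each direction, and their promoters are shown with that of FGFRL1, which lies on the same chromosome as FGFR3 and had the most reads of the 10 genes. Each line gives the 250 bases before the transcript start on the plus strand, from RefSeq on GRCh38.p14: chr4:1793043-1793292 for FGFR3, chr5:177086665-177086914 for FGFR4 and chr4:1012214-1012463 for FGFRL1. Capitals mark GC boxes, the letters GGGCGG on either strand, which are the recognition sequence of SP1-type factors.
FGFR3: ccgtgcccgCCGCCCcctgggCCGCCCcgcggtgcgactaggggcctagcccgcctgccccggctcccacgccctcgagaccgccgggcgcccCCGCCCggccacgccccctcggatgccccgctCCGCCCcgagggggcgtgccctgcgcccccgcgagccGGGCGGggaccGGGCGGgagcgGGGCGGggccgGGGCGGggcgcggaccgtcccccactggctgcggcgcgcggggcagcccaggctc
FGFR4: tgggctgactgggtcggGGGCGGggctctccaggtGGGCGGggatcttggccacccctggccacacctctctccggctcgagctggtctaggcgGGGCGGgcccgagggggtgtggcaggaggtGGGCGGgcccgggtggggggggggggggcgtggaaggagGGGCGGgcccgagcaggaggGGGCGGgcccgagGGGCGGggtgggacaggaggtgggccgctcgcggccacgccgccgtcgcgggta
FGFRL1: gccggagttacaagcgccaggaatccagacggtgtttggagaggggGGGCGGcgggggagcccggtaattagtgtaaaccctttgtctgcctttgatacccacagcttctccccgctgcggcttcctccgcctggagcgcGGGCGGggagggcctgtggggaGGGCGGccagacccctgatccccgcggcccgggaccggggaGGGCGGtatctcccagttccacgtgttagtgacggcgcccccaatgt
FGFR3 held 8 GC boxes, FGFR4 held 7 and FGFRL1 held 4. A second FGFR4 start listed downstream, chr5:177089300-177089549, held 0. Of 35116 RefSeq promoter windows of this length, 42.6% held at least 1 GC box, 1.12% at least 7 and 0.584% at least 8. The G and C content was 86.8% for FGFR3, more than in 99.8% of all windows, and it was 79.6% for FGFR4 and 67.6% for FGFRL1, against a median of 58%. FGFR3, with the largest ratio on the lower side in ENZR, and FGFR4, with the largest on the higher side, thus each had a window rich in GC boxes. For 8 of the 10 genes, all but FGFR1 and FGF8, 14 windows of this length were available, some genes having several starts. No window held the full androgen response element, AGAACA and TGTTCT with 3 bases between them, searched on both strands, and 1 of the 35116 windows did. The half-site TGTTCT, which is part of that element, occurred on either strand in 1 window, a start of FGF13, and in 12.4% of all windows. These matches describe letters in the sequence and not binding.

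FGFR3, a receptor best known for restraining bone growth and as an oncogene of bladder cancer, had 0.971 CPM (24 reads) in ENZR, against 8.08 CPM (165 reads) in Con. The Con level was thus the higher one, and the exact 95% interval of the ratio of Con over ENZR ran from 5.41 to 13.4. These intervals come from the read counts, cover counting error only and are called counting intervals below. The log2 ratio of FGFR3 was -2.20, and 0.964% of the 13803 genes had a lower one, which made it number 134 from the bottom. FGFR3 passed the limit on mean level through its Con value alone, since its ENZR value was below 1 CPM.

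**Figure D1:**
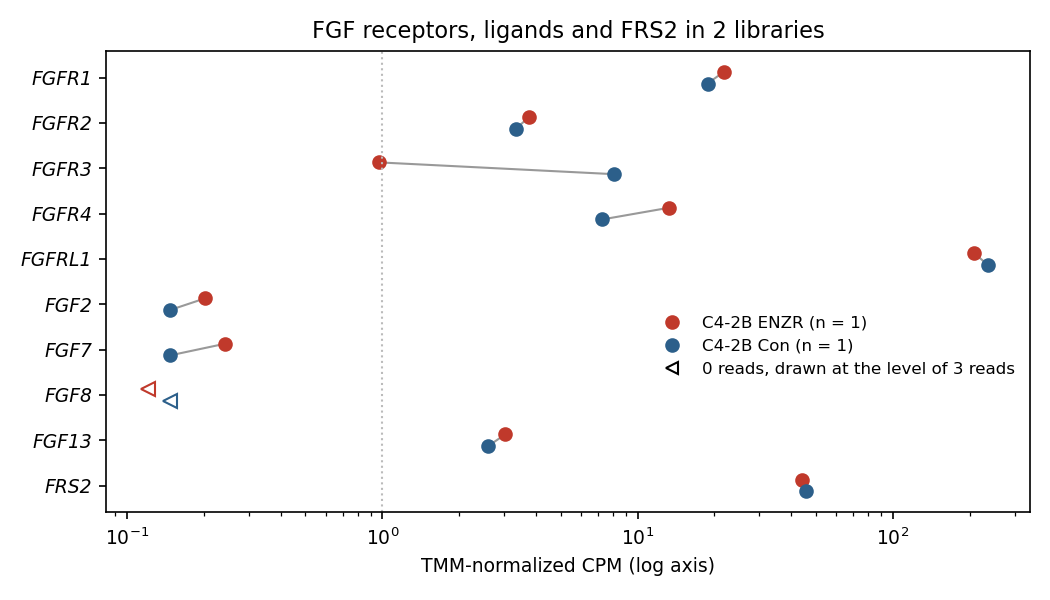
TMM-normalized CPM (log axis) of the 10 genes, with 1 point per library, C4-2B ENZR in red above C4-2B Con in blue, and open triangles for FGF8, which had 0 reads, drawn at the level of 3 reads. The FGFR3 points lie apart at 0.971 CPM in ENZR and 8.08 CPM in Con, the 2 points of FRS2 nearly coincide at 44.0 CPM in ENZR and 45.6 CPM in Con, and the dotted line marks 1 CPM.

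FGFR4, the main receptor for the hormone FGF19 in liver, had 13.3 CPM (329 reads) in ENZR and 7.25 CPM (148 reads) in Con. It was 1.83-fold higher in ENZR, with a counting interval of 1.51 to 2.24, and its log2 ratio of 0.79 stayed short of 2-fold. A lower log2 ratio was found for 91.0% of the genes. FGFR4 was the receptor with the largest ratio above 1.

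FGFR1, which is expressed in many mesenchymal cells and is often raised in advanced prostate cancer, had 21.8 CPM (539 reads) in ENZR and 18.8 CPM (384 reads) in Con. The ratio was 1.16 with a counting interval of 1.01 to 1.32. FGFR2, the epithelial receptor of FGF7 and FGF10, had 3.76 CPM (93 reads) in ENZR and 3.33 CPM (68 reads) in Con. Its ratio of 1.13 had a counting interval of 0.817 to 1.57, which includes 1. The table gives 1 value per gene, so the IIIb and IIIc splice forms of FGFR1, FGFR2 and FGFR3, which bind different ligands, were not told apart.

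FGFRL1, a receptor-like protein that binds FGFs but has no tyrosine kinase domain, had 207.9 CPM (5141 reads) in ENZR and 235.5 CPM (4807 reads) in Con. The ratio was 0.883 (0.849 to 0.918), an interval that excludes 1. With the TMM scaling undone the ratio was 0.958, still below 1. FRS2 had 44.0 CPM (1088 reads) in ENZR and 45.6 CPM (931 reads) in Con, a ratio of 0.965 (0.883 to 1.05). The FRS2 ratio lay above 1, at up to 1.05, with the TMM scaling undone or the 10 most abundant genes left out of the library totals. With upper quartile scaling it was 1.001. FRS2 is the docking protein that the signalling FGF receptors share.

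Counted by interval, FGFR1 and FGFR4 lay above 1, FGFR3 and FGFRL1 below 1, and the intervals of FGFR2, FGF13 and FRS2 included 1. With these read numbers such calls are common: over all 13803 genes the interval lay above 1 for 34.6% and below 1 for 36.6%. The intervals compare these 2 libraries and not the conditions.

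**Figure D2:**
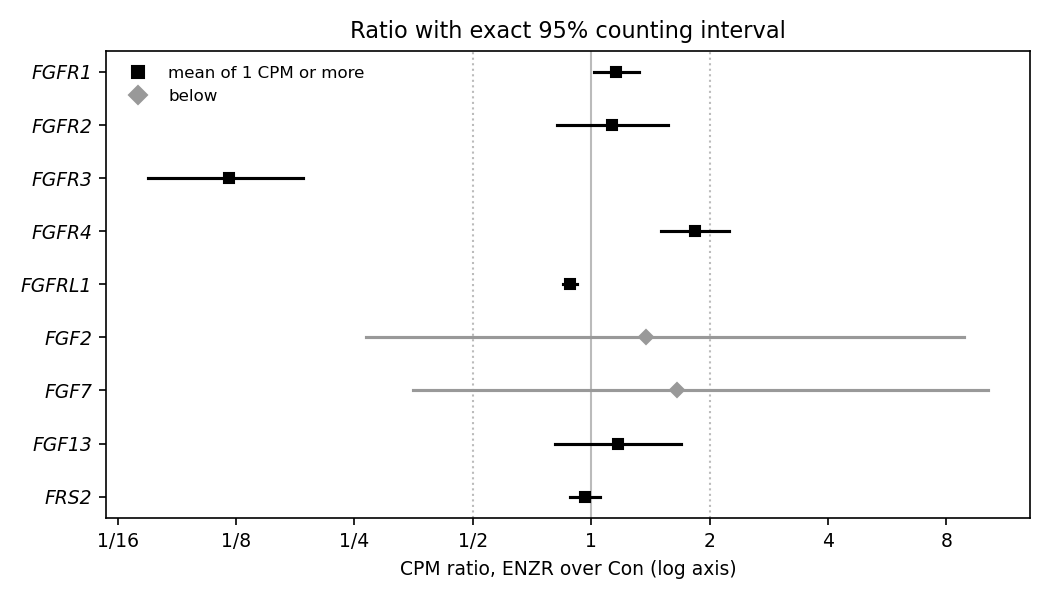
CPM ratio of ENZR over Con (log axis) for the 9 genes with reads in both libraries, with exact 95% counting intervals as horizontal lines and 1 library per group. FGFR3 lies at 0.120 with its interval left of the dotted line at 1/2, FGFR4 at 1.83, and the grey intervals of FGF2 and FGF7, which rest on 3 to 6 reads per library, span 1 widely.

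To compare the receptors with each other, CPM was divided by the length of the merged exons of their coding transcripts in GENCODE 29. Per kb, ENZR had 4.16 CPM of FGFR4, 3.34 of FGFR1, 0.561 of FGFR2 and 0.218 of FGFR3. In Con the order was FGFR1 at 2.89 CPM per kb, FGFR4 at 2.27, FGFR3 at 1.81 and FGFR2 at 0.497. The first and second places were thus exchanged between the libraries, and FGFR3 was last in ENZR but ahead of FGFR2 in Con. FGFR4 exceeded FGFR3 per kb by a ratio of 19.1 in ENZR and 1.25 in Con. In shares of the summed per-kb level of FGFR1 to FGFR4, FGFR3 held 2.63% in ENZR and 24.3% in Con, and FGFR4 held 50.2% in ENZR and 30.4% in Con. FGFR1 held 40.4% in ENZR and 38.7% in Con, and FGFR2 6.77% in ENZR and 6.66% in Con. The order in each library was the same with the longest coding transcript as the length.

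**Figure D3:**
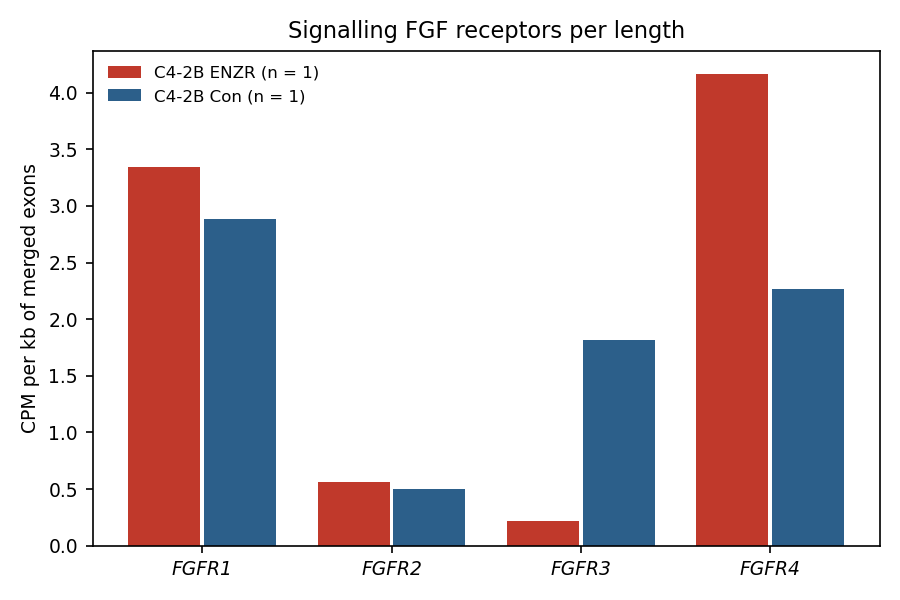
CPM per kb of merged exons of the 4 signalling FGF receptors, C4-2B ENZR in red to the left of C4-2B Con in blue, 1 library per bar and therefore no error bars. FGFR4 has the highest bar in ENZR (4.16) and FGFR1 the highest in Con (2.89), and the FGFR3 bar is 0.218 in ENZR and 1.81 in Con.

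Summed over FGFR1 to FGFR4, the signalling receptors had 39.8 CPM (985 reads) in ENZR and 37.5 CPM (765 reads) in Con, a ratio of 1.06 (counting interval 0.966 to 1.17.) With the TMM scaling, the interval of the summed ratio includes 1, while the share of FGFR3 in the sum differed between the libraries. The sum was not recalculated with other scalings. With the TMM scaling undone the ratio of FGFR1 rose from 1.16 to 1.26, so whether the summed interval includes 1 rests on the scaling. Of these reads, FGFR3 took 2.44% in ENZR (exact 95% binomial interval 1.57% to 3.60%) and 21.6% in Con (18.7% to 24.7%). Without FGFR3 the sum was 38.9 CPM in ENZR and 29.4 CPM in Con, a ratio of 1.32 (1.19 to 1.47). FGFRL1 stood above the 4 signalling receptors together, per kb by a ratio of 6.39 in ENZR and 8.03 in Con.

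**Figure D4:**
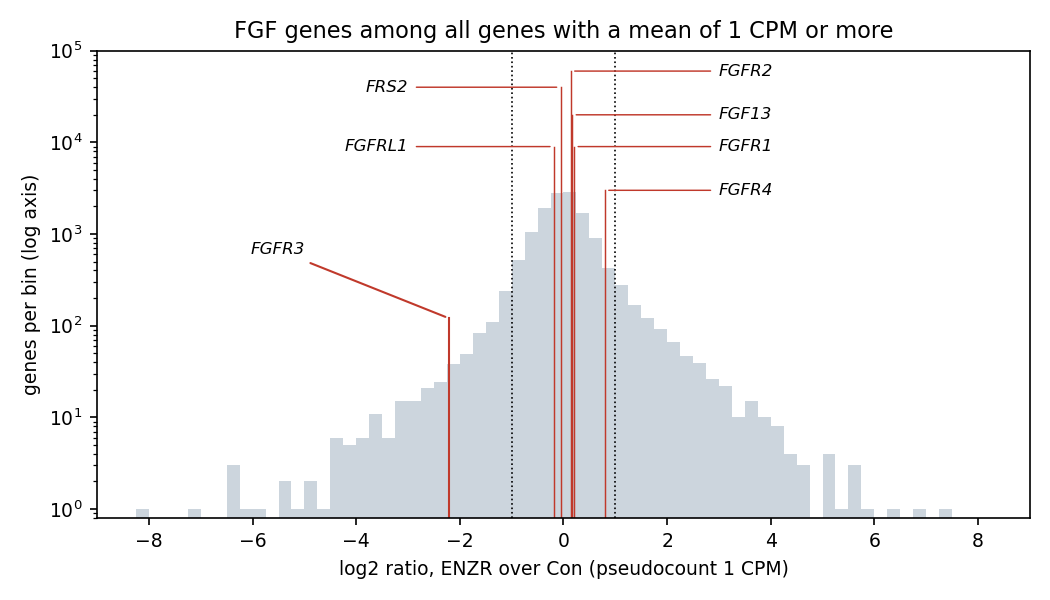
Number of genes per bin of the log2 ratio of ENZR over Con (bins of 0.25, log axis) for the 13803 genes that averaged at least 1 CPM, with red lines at the 7 FGF genes that reached this level. FGFR3 lies at -2.20 in the lower tail, and the other 6 lie between the dotted lines at -1 and 1.

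The 3 secreted ligands among the 10 genes, FGF2, FGF7 and FGF8, had 6 reads or fewer in each library. FGF8, first described as an androgen-induced growth factor of mammary tumour cells, had 0 reads in ENZR and 0 in Con, which allows a level of up to 0.121 CPM in ENZR and 0.147 CPM in Con (3 reads). FGF2, basic FGF, had 5 reads (0.202 CPM) in ENZR and 3 reads (0.147 CPM) in Con. FGF7, keratinocyte growth factor, had 6 reads (0.243 CPM) in ENZR and 3 reads (0.147 CPM) in Con. The ratio of FGF2 was 1.38 (0.268 to 8.86) and that of FGF7 1.65 (0.353 to 10.2), so a difference in either direction was not detectable at this depth. FGF7 has near-identical partial copies elsewhere in the genome, which makes its read assignment uncertain.

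Of all 18 secreted FGFs, 8 had no read in either library and 1 reached a mean of 1 CPM. That 1 was FGF5, a ligand known for ending the hair growth phase, which is named after its values were seen and had 4.25 CPM (105 reads) in ENZR and 2.50 CPM (51 reads) in Con, a ratio of 1.70 (1.21 to 2.42). The other 17 together had 36 reads in ENZR and 23 in Con, and none of them exceeded 0.324 CPM in ENZR or 0.441 CPM in Con. Neither FGF10, the other stromal ligand of FGFR2, nor FGF9 had a read in either library. FGF19 had 4 reads in ENZR and 0 in Con.

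FGF13 belongs to the FGF homologous factors, which stay inside the cell, do not act through FGF receptors in the usual way and bind voltage-gated sodium channels and microtubules. It had 3.03 CPM (75 reads) in ENZR and 2.60 CPM (53 reads) in Con, a ratio of 1.17 (counting interval 0.811 to 1.69.) FGF13 was the member of this subfamily with the most reads, since FGF11 had 14 reads in ENZR and 10 in Con, FGF12 had 1 read in ENZR and 4 in Con, and FGF14 had none in either.

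The sodium channel subunits, partners of FGF homologous factors, were measured at low levels. Of 13 subunits, 5 had a mean of 1 CPM or more, and of these 4 were higher in ENZR and 0 lower by 2-fold or more. The shares over all 13803 genes were 6.69% higher and 4.64% lower. SCN4A and SCN8A passed the limit on mean level through ENZR alone, where they are high, so these counts are a description. The median log2 ratio of the 5 was 1.02, but 0.27 over all subunits with a read and 0.50 with a pseudocount of 5 CPM. The auxiliary subunit SCN4B had 4.41 CPM in ENZR and 1.67 CPM in Con. SCN8A, a channel of neurons, had 52 reads in ENZR and 11 in Con. SCN4A, the skeletal muscle channel, had 67 reads in ENZR and 1 read in Con, a ratio of 55.3 (counting interval 9.59 to 2217.) SCN2A, a neuronal channel picked out once its values were known, had 31 reads in ENZR and 0 in Con. Its mean level was below 1 CPM. Its ENZR value was 8.53-fold above the level of 3 reads in Con, and the counting interval of its ratio began at 6.53. With a pseudocount of 5 CPM or a mean of 5 CPM or more, 0 subunits passed 2-fold.

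Among co-receptors, KLB, the klotho protein that lets FGFR4 and FGFR1 respond to FGF19 and FGF21, had 6.55 CPM (162 reads) in ENZR and 5.93 CPM (121 reads) in Con, a ratio of 1.11 (0.868 to 1.41). KL, the co-receptor for FGF23, had 1 read in ENZR and 8 in Con. Of 13 co-receptors and extracellular regulators, 5 reached a mean of 1 CPM, and 1 of them was at least 2-fold higher, beside the 6.69% of all genes. That gene was NCAM1, a neural adhesion molecule reported to bind FGF receptors, with 73 reads in ENZR and 3 in Con, a ratio of 20.1 (6.61 to 99.6). NCAM1 passed the limit on mean level through ENZR alone, and 0 genes of this group passed 2-fold with a pseudocount or a minimum mean of 5 CPM. Among the genes below the limit, FLRT1, an adhesion protein that binds FGF receptors and was picked out once its values were known, had 10 reads in ENZR and 22 in Con, a ratio of 0.375 (0.159 to 0.826). The median log2 ratio was 0.50 over the 5 genes and 0.12 over all with a read.

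Heparan sulfate core proteins carry the chains that FGFs and their receptors bind. Of 11 core proteins with a mean of 1 CPM or more, 10 had log2 ratios above 0, 3 were higher and 1 was lower by 2-fold or more, with a median log2 ratio of 0.36. Over all 13803 genes 49.5% had log2 ratios above 0, and the shares past 2-fold were 6.69% higher and 4.64% lower, with a median of -0.0065. SDC2, a syndecan, had 16.8 CPM in ENZR and 3.43 CPM in Con, 4.91-fold higher (3.80 to 6.41). SDC4, the syndecan of focal adhesions, was 2.85-fold higher, with 83.9 CPM in ENZR and 29.5 CPM in Con. GPC3, a glypican, was 2.29-fold higher, with 45.8 CPM in ENZR and 20.0 CPM in Con. GPC6, another glypican, went the other way, with 0.930 CPM (23 reads) in ENZR and 29.4 CPM (601 reads) in Con, 31.7-fold lower (20.9 to 50.3), and passed the limit on mean level through Con alone.

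Of 12 heparan sulfate synthesis and sulfation enzymes with a mean of 1 CPM or more, 1 was higher and 0 were lower by 2-fold or more. These counts stand beside 6.69% higher and 4.64% lower over all 13803 genes. With the TMM scaling undone, upper quartile scaling, library totals without the 10 most abundant genes or a pseudocount of 0.5 CPM, 2 were higher. HS3ST1, which adds the sulfate needed for antithrombin binding, had 12.5 CPM (310 reads) in ENZR and 0.588 CPM (12 reads) in Con, a ratio of 21.3 (12.0 to 41.7), and passed the limit through ENZR alone. The median of the 12 was -0.16 and became 0.041 when all enzymes with a read were included.

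Below the receptors, all 23 adaptors and effectors from FRS2 to ERK were expressed, and 0 of 23 passed 2-fold in either direction. Among all 13803 genes, 6.69% were higher and 4.64% lower by this measure. Their median log2 ratio was 0.25. GRB2 had 165 CPM in ENZR and 138 CPM in Con, and the counting interval of its ratio was 1.14 to 1.26. PTPN11, which encodes SHP2, had 309 CPM in ENZR and 370 CPM in Con, a ratio of 0.836 (0.810 to 0.863). GAB1 had 4.33 CPM in ENZR and 4.21 CPM in Con, a ratio of 1.03 (0.766 to 1.38). The transcripts of this docking complex thus differed by less than 2-fold between the libraries.

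Genes that ERK signalling induces, many of them feedback inhibitors, had log2 ratios on both sides of 0. Of 16 with a mean of 1 CPM or more, 3 were higher and 4 lower by 2-fold or more, with a median log2 ratio of 0.03. Over all 13803 genes, 6.69% were higher and 4.64% lower. SPRY1, a Sprouty inhibitor, had 1.90 CPM (47 reads) in ENZR and 9.41 CPM (192 reads) in Con, 4.95-fold lower (3.58 to 6.96). SPRY2 had 21 reads in ENZR and 60 in Con, 3.46-fold lower (2.08 to 5.99). SPRY4, at a mean below 1 CPM and so not counted, had 1 read in ENZR and 3 in Con. The other genes counted as lower were DUSP4, a nuclear ERK phosphatase, with 34 reads in ENZR and 297 in Con, and PHLDA1, a pleckstrin-homology protein, with 209 reads in ENZR and 1385 in Con. On the higher side ETV4, an ETS factor downstream of FGF signalling, had 162 reads in ENZR and 12 in Con, and its relative ETV5 had 32 reads in ENZR and 12 in Con, a ratio of 2.20 (1.10 to 4.69) at a mean below 1 CPM. DUSP5, a phosphatase of nuclear ERK, had 152 reads in ENZR and 48 in Con, and SPRY3 had 67 reads in ENZR and 17 in Con. DUSP6, the ERK phosphatase most used as a readout of FGF signalling, had 25 reads in ENZR and 12 in Con, at a mean below 1 CPM. Its ratio was 1.72 (counting interval 0.833 to 3.76). ETV4 and SPRY3 passed the limit on mean level through ENZR alone and SPRY2 through Con alone. With a mean of 5 CPM or more 0 genes of this group were higher and 3 lower by 2-fold, and the median was -0.10, while with a pseudocount of 5 CPM 1 was higher and 3 were lower.

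**Figure D5:**
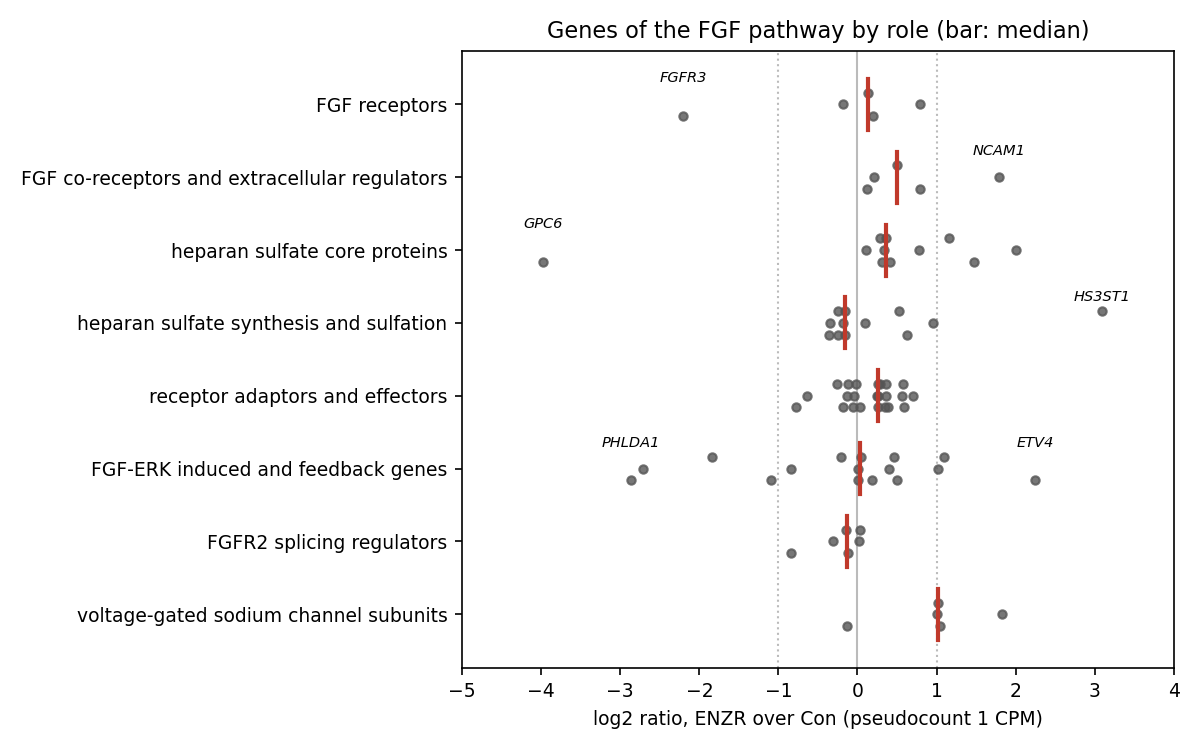
Log2 ratio of ENZR over Con (pseudocount of 1 CPM) for genes of 8 roles around FGF receptors that averaged at least 1 CPM, 1 dot per gene, a red bar at each median and dotted lines at 2-fold. The 23 adaptors stay within the dotted lines, GPC6 and HS3ST1 lie farthest out, and the ERK-induced genes spread to both sides of 0.

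The regulators of FGFR2 splicing, among them the epithelial factors ESRP1 and ESRP2, were all expressed. Past 2-fold were 0 of 6 in either direction, beside 6.69% higher and 4.64% lower over all genes. Their median log2 ratio was -0.13.

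The genes next to the FGF genes on the chromosome were measured as well. Neighbours were found by symbol, so genes listed under different symbols in RefSeq and in the deposited data were left out. The 10 genes taken for FGFR3 were the nearest 5 on each side found this way that averaged at least 1 CPM. Of these, 0 had a log2 ratio past 2-fold in either direction. Their log2 ratios ran from -0.98 to 0.59 with a median of -0.06. The gene at -0.98 had a plain ratio of 0.499, without the added 1 CPM. Around FGFR4 the median was -0.45, and 1 neighbour, the netrin receptor gene UNC5A, was past 4-fold, with 0.0404 CPM (1 read's worth) in ENZR and 9.01 CPM in Con. Around FGFRL1 the median was -0.17, with LOC100130872 past 4-fold lower at 1.01 CPM in ENZR and 7.45 CPM in Con. The neighbours of FGFR1, FGFR2, FGF13 and FRS2 had medians between -0.13 and 0.08.

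As a check of the labelled cell type, all 12 luminal prostate markers had a mean of 1 CPM or more, with summed levels of 3311 CPM in ENZR and 5388 CPM in Con. KLK3, the prostate-specific antigen gene, a target of androgens, had 3.72 CPM in ENZR and 1428 CPM in Con. In all, 3 of the 12 were at least 2-fold lower, beside 4.64% of all genes, KLK2 and SLC45A3 being the others. Of the 12, 9 had log2 ratios below 0 and 3 above, with a median of -0.60. Over all 13803 genes 49.5% had log2 ratios above 0 and the median was -0.0065. Of markers of other cells, 0 of 4 basal, 2 of 8 fibroblast, 2 of 4 endothelial, 1 of 4 leukocyte and 1 of 5 neuroendocrine markers reached a mean of 1 CPM. The fibroblast markers summed to 47.5 CPM in ENZR and 20.8 CPM in Con, nearly all of it COL1A1 (44.4 CPM in ENZR and 18.1 CPM in Con). LUM, picked out once its values were known, had 32 reads in ENZR and 0 in Con, while COL1A2 and PDGFRA had 0 reads in both. The ENZR value of LUM was 8.80-fold above the level of 3 reads in Con, and the counting interval of its ratio began at 6.76. The endothelial markers summed to 5.22 CPM in ENZR and 10.7 CPM in Con, led by VWF (2.91 CPM in ENZR and 8.92 CPM in Con), with CDH5 at 0 reads in both. KRT5, TP63, CD3E, MS4A1 and INSM1 also had 0 reads in both libraries. The part of these markers in the FGFR3 difference was not tested.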

How the data were processed

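RNA-seq of total RNA, 50-base single reads, was available for 1 library of C4-2B ENZR and 1 of C4-2B Con. The deposited table held one signal value per gene and library, the authors' TMM-normalized CPM. Bowtie2 2.1.0, RSEM 1.2.15, edgeR and hg19 appear without roles in the submitters' processing notes; annotation and strand use are not given in the sources used. No other sample columns (0) were present. All values (100% in each library, within 0.01 reads) were whole multiples of 1 step, 0.0404 CPM in ENZR and 0.0490 CPM in Con, so reads per gene were recovered, which may be rounded RSEM estimates. Without replicates no count test could be fitted. Ratios received exact 95% Clopper-Pearson intervals (scipy 1.17.1) for counting error only. Log2 ratios used a pseudocount of 1 CPM, which understates the change of low genes, and genes averaging at least 1 CPM. The calculation was tested on simulated reads.

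The members, gene lists and named genes were chosen with earlier results of these data known. Named were all 10 members, 12 pathway genes and, from each list, up to 4 genes past 2-fold in each direction, and neighbours past 4-fold. A gene that this rule takes is not reported here. Lengths came from GENCODE 29 and neighbours from RefSeq (GRCh38.p14), matched by symbol, and no coordinates were converted. Alternatives changed scaling, pseudocount, filter, repeated symbols and, added after seeing the data, the length.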

Additional observations from a re-analysis of the deposited data

How the results depend on the processing

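The ratio of FGFRL1 was 0.883 as reported, 0.958 with the TMM scaling undone and 0.957 with library totals that omit the 10 most abundant genes. In each of the 4 other scalings and with repeated symbols summed, FGFR1 and FGFR4 kept intervals above 1, FGFR3 and FGFRL1 below 1, and the intervals of the others included 1. The ratio of FGFR3 ran from 0.120 to 0.130 and that of FGFR4 from 1.83 to 1.99. The count of members at least 2-fold lower was 1 and became 0 with a mean of 5 CPM or more, because FGFR3 has a mean of 4.53 CPM and was left out. Over all genes, 923 were at least 2-fold higher and 641 lower. With a pseudocount of 5 CPM these were 447 and 371, and with a mean of 5 CPM or more 577 were higher. Without the filter on low values the median of heparan sulfate synthesis genes was 0.041 (-0.16 as reported) and that of endothelial markers 0.050 (-0.65 as reported). Undoing the TMM scaling moved the median log2 ratio of all genes by 0.11, so ratios this close to 1 rest on the scaling. The share of FGFR2 among receptors per kb, 6.77% in ENZR and 6.66% in Con, was 9.63% and 9.51% with the longest transcript as length. No paired analysis was possible because each group has 1 library. No replicate could be left out either. At this depth a gene with no read may have up to 0.121 CPM in ENZR or 0.147 CPM in Con.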
